A study of Mus musculus with 2 samples.

Results

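Cytotoxic lymphocytes and natural killer (NK) cells were a small population among synovial cells that had been sorted as CD45+CD11b+ from the hind paws of arthritic mice. They were chosen by their own transcripts: a cell with 500 or more genes and no more than 10% mitochondrial UMIs (unique molecular identifiers, which count captured transcript molecules) was a member when at least 3 of the 6 genes Nkg7, Gzma, Ccl5, Ncr1, Klrk1 and Prf1 had a UMI and when C1qa, C1qb and C1qc, complement genes of macrophages, summed to fewer than 10 UMIs. This rule found 72 cells among the 10249 cells kept. Wild-type C57BL/6 mice, 7 to 10 weeks of age, received a single intraperitoneal injection of 1 mg β-glucan, an agonist of trained immunity, or of PBS as control, and arthritis was induced 7 days later. At day 17 of arthritis the cells of 4 mice per group were pooled and sequenced as 1 droplet-based 3' library per group. The sample labels name antibody-induced arthritis with LPS for these libraries, whereas the series' design text and the study's methods give K/BxN serum transfer, so the arthritis model behind the values is uncertain. The methods name β-glucan from Trametes versicolor and from S. cerevisiae and do not say which was used here.

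NK cells are innate lymphocytes that kill target cells by releasing granules loaded with perforin and granzymes, and they release chemokines and interferon-γ. Whether they kill is set by the balance of germline-encoded activating and inhibitory receptors, which in the mouse include the Ly49 receptors encoded by the Klra genes and the NKG2 and NKR-P1 receptors encoded by the Klrc, Klrk1 and Klrb1 genes. Cytotoxic T cells share the granule machinery but carry the CD3 complex and a rearranged T cell receptor, and in inflamed joints both kinds of cell lie among far more numerous myeloid cells.

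The 6 genes of the rule lie on 5 chromosomes. In GRCm39, the build of the deposited counts, Ncr1 lies at chr7:4340710-4348171 and Nkg7 at chr7:43086497-43087678 on the forward strand. Prf1 lies at chr10:61133546-61140461 on the forward strand, and Gzma at chr13:113230355-113237524, Ccl5 at chr11:83416602-83425942 and Klrk1 at chr6:129587286-129600827 lie on the reverse strand. All are protein-coding genes, and in the GENCODE vM39 annotation none overlaps another gene on its own strand. The 250 bases before the start of 3 of these genes are shown because they mark the receptor, the protease and the pore-forming protein that set the NK-like members apart. They come from RefSeq on GRCm38.p6, at chr7:4337465-4337714 for Ncr1, chr13:113100982-113101231 for Gzma and chr10:61297586-61297835 for Prf1, and each is written 5′ to 3′ on the strand of its gene. Capitals mark the core TGTGGT of RUNX factors or its reverse complement ACCACA.
Ncr1: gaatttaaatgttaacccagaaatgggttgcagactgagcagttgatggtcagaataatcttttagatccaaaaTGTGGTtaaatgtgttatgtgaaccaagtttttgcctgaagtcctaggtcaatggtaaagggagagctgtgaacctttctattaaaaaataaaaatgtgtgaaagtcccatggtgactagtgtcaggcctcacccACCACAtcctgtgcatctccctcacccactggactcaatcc
Gzma: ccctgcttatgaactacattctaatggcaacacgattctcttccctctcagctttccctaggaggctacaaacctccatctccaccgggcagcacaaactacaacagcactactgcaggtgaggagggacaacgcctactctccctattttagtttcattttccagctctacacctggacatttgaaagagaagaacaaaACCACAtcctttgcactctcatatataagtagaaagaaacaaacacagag
Prf1: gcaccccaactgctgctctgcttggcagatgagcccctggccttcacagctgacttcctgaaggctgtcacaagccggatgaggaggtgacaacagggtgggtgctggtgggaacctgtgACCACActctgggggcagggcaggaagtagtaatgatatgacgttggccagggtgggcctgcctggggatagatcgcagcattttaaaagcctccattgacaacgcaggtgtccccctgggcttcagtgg
The Ncr1 window held 2 such cores, and the Gzma and Prf1 windows held 1 each. Of 32851 listed promoters, 14.0% held the core in the same window, so a match is a description and not a site of binding. The T-box core GGTGTG, or CACACC on the other strand, was in none of the 3 windows and in 16.3% of all promoters. Runx3, which encodes a RUNX factor of cytotoxic lymphocytes, was at 188 CPM (UMIs of a gene divided by all UMIs of the same cells, times 1000000) in the β-glucan members and 205 CPM in the PBS members, from 44 and 60 UMIs.

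Most members had all 6 rule genes, and the limit of 3 did not lie in a gap. Of the β-glucan members, 23 had all 6 genes, 5 had 5, 2 had 4 and 5 had 3, and of the PBS members, 21 had 6, 5 had 5, 4 had 4 and 7 had 3. Just outside the limit, 36 β-glucan cells and 33 PBS cells had exactly 2 of the genes. In those cells just outside, Gzma and Ncr1 were at 0 UMIs in both libraries, Ccl5 was found in 24 and 15 cells, Nkg7 in 17 and 21, and Klrk1 in 29 and 25. Among the members with 3 genes Gzma was at 0 UMIs in all 5 and 7, and cells with 6 genes have it by the rule.

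**Figure D1:**
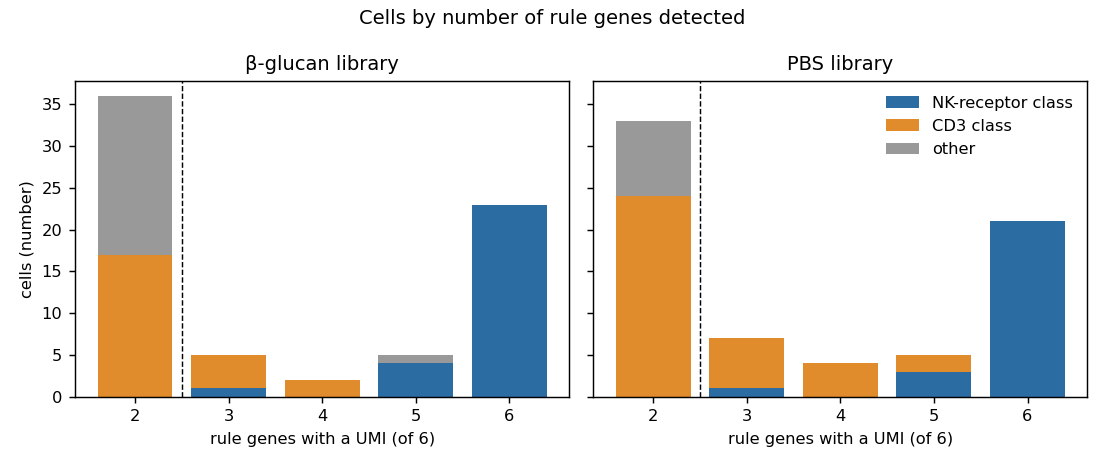
Cells (number, vertical axis) with 2 to 6 of the 6 rule genes detected (horizontal axis) and fewer than 10 C1q UMIs, in the β-glucan and PBS libraries. Colours give the NK-receptor class, the CD3 class and other cells, and the dashed line is the limit of the rule. All 23 and 21 cells with 6 genes were in the NK-receptor class, and the cells with 3 or 4 genes were mostly in the CD3 class.

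A few β-glucan barcodes carried transcripts of a second cell type, and values for genes named here that rest on them are given with and without them. One β-glucan member of 8745 UMIs had 235 UMIs of Mcpt4, 126 of Cma1, 121 of Tpsb2 and 95 of Cpa3, proteases of mast cells, beside 24 UMIs of Gzma and 0 of Ncr1. A second, the largest β-glucan member at 14504 UMIs, had all 6 rule genes and also 6 of 6 B cell markers, with 80 UMIs of Bank1, 39 of Ebf1 and 66 of Cd74. Another β-glucan member had all 6 rule genes with 17 UMIs of Ebf1 and 10 of Bank1. The last, in the class with CD3 genes described below, had 3 rule genes, 7 of 10 macrophage markers, 53 UMIs of Cd74 and 28 of H2-Ab1. Only the first 2 of the 4 had at least 3 mast cell or B cell markers, so that limit alone did not set the 4 apart. No PBS member was counted as mixed with or without that limit. The 4 barcodes were therefore all in 1 library, and 31 β-glucan members were left without them. Whether they were doublets was not tested directly. Scrublet's automatic threshold marked 0% and 0.0439% of the kept cells, so its calls were not used. By rank, 1 of the 4, the barcode with 6 B cell markers, was among the 273 highest scores of its library, and 1 PBS member was among the 187 highest of its own. Of all barcodes 7 were shared between the libraries, and none of these was a member.

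The share of members did not differ between the libraries beyond counting error. They made up 0.614% of the kept cells with β-glucan (35 of 5696, exact Clopper-Pearson interval 0.428 to 0.854%) and 0.813% with PBS (37 of 4553, 0.573 to 1.12%). The ratio of the shares was 0.756, with an interval of 0.462 to 1.23 that includes equality, and without the 4 barcodes it was 0.670. Each group was a single library, so nothing here could be tested against replicates. All intervals are at 95% and cover counting error only, and the spread between mice is not known. The β-glucan members held 233728 UMIs and the PBS members 292616, with medians of 5982 and 6959 UMIs per cell, less than the medians of 12457.5 and 14475 over all kept cells. Only lymphocytes that passed the CD11b gate could enter, so these are not shares of the lymphocytes of the joint. Itgam, the gene for CD11b, had a UMI in 57.1% and 52.0% of the NK-receptor class described next, but in 2 of 6 and 0 of 12 cells of the CD3 class.

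The members comprised mainly NK-like cells and a smaller group with T cell genes. Cells with at least 2 of Cd3d, Cd3e, Cd3g and Trac formed the CD3 class, and cells below that with a UMI of Ncr1 or Klrb1c, the gene for NK1.1, formed the NK-receptor class. The NK-receptor class held 28 β-glucan cells (80%, interval 63.1 to 91.6%) and 25 PBS cells (67.6%, 50.2 to 82.0%). The CD3 class held 6 β-glucan cells (17.1%, 6.56 to 33.6%) and 12 PBS cells (32.4%, 18.0 to 49.8%), and the mast cell-like barcode was left in neither. The intervals of the libraries overlap for both classes. On the 4 CD3 genes that made the cut few members lay between: 28 and 23 had none, 4 and 9 had all, and 3 and 5 had 1 to 3. On the NK receptor genes the classes overlapped, as 1 of 6 and 5 of 12 CD3 class cells had Ncr1 or Klrb1c. After each cell was thinned to 4000 UMIs, the CD3 class held 4 of 33 and 12 of 36 cells.

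Checked on genes that the rule did not use, the members as a whole carried NK transcripts, but the 2 classes did not do so alike. Klra8 had 244 and 256 UMIs in the NK-receptor class and 0 in the CD3 class of either library. Xcl1 was also found in the CD3 class, as described below. Klra8, Xcl1, Klra9 and Eomes were among the 9 genes with the largest ratio of CPM in members to all other kept cells. Of all Eomes UMIs in the kept cells, 82.8% and 94.9% lay in the members, of Klra8 UMIs 94.0% and 98.8%, and of Klrb1c UMIs 76.9% and 72%. Klrd1 was less confined, with 13.2% and 13.2%, and Ifng was uneven, with 63.6% and 29.3%. Of the rule genes, which the choice itself draws into the members, Ncr1 had 90.0% and 98.8% there and Gzma 85.8% and 95.8%. By contrast, 16.6% and 18.4% of Klrk1 UMIs and 27.9% and 28.8% of Gzmb UMIs did, so those transcripts were mostly in other cells. The erythrocyte markers were at 0 UMIs, neutrophil markers at 3 and 3 UMIs and cycling markers at 3 and 7 UMIs. Type 1 innate lymphoid cells share Ncr1 and Klrb1c with NK cells, and Itga1, which is often used to tell them apart, was found with or without Itgam in 3 and 1 cells of the NK-receptor class. B cell markers summed to 68 UMIs in the β-glucan members and 15 in the PBS members, mast cell markers to 379 and 20, led by Mcpt4, and macrophage markers to 138 and 83, led by Lyz2. Without the 4 barcodes the β-glucan sums were 16, 11 and 67. Plasma cell markers summed to 8 and 10 UMIs, stromal to 9 and 13, dendritic cell to 6 and 4, and those of type 2 or 3 innate lymphoid cells, led by Gata3, to 43 and 38, or 21 in the β-glucan members without the barcodes.

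Shares of C1q-high cells with a UMI of the rule genes are given as a description of another cell type. C1q-high cells had 10 or more C1q UMIs and fewer than 3 rule genes. This limit left out 6 β-glucan cells and 1 PBS cell with 10 or more C1q UMIs and at least 3 rule genes. The shares and bounds below, with the 0 for Ncr1, are therefore partly set by that choice. In C1q-high cells Ncr1 had a UMI in 0 of 4322 β-glucan cells and 0 of 3163 PBS cells, with exact upper bounds of 0.0853% and 0.117%. Gzma had a UMI in 0.231% and 0.0948%, and Prf1 in 0.0925% and 0.0632%, at median depths of 13510 and 15905 UMIs per cell. At medians of 5839.5 and 6548 UMIs, 88.0 to 100% of cells of the NK-receptor class had a UMI of these genes, a share that the rule and the class limits set. Klrk1 had a UMI in 2.98% and 4.27% of the C1q-high cells, the highest share of the 6, and since most Klrk1 UMIs lay outside the members, whether these came from free RNA was not tested.

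**Figure D2:**
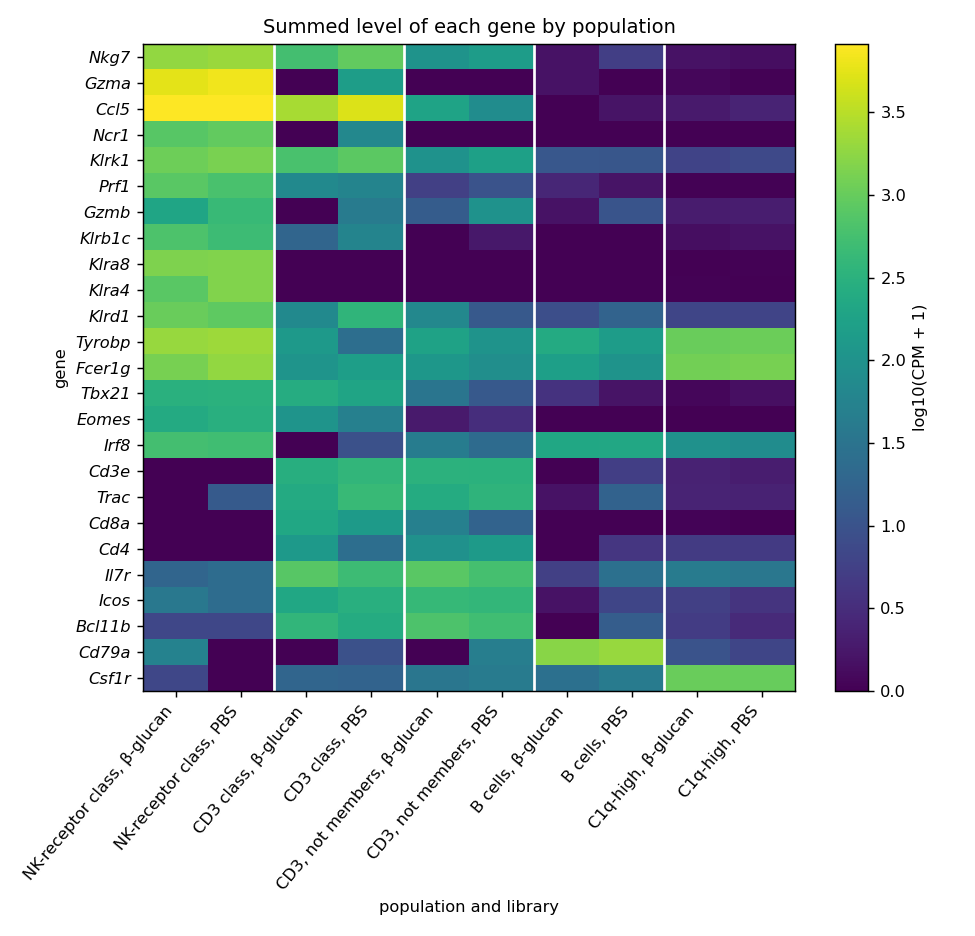
Summed level of each gene, as log10(CPM + 1), in 5 populations (pairs of columns) of the β-glucan and PBS libraries. Granule, chemokine, receptor, adaptor and transcription factor genes from Nkg7 to Irf8 were high in the NK-receptor class, and some, such as Ccl5, also in the CD3 class. CD3 and T cell genes were high in the CD3 class and in CD3 cells outside the members, Cd79a in B cells and Csf1r in C1q-high cells.

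The 6 rule genes, which chose the members, are described here without a test. Ccl5, a chemokine that attracts T cells and monocytes, was at 6803 CPM with β-glucan and 6872 CPM with PBS, and its UMIs per cell ranged from 1 to 148 with a median of 40 and from 1 to 211 with a median of 46. Gzma, the serine protease granzyme A, was at 4146 and 4012 CPM and ranged from 0 to 82 and from 0 to 124 UMIs per cell. Nkg7, a granule membrane protein needed for degranulation, was at 1553 and 1644 CPM. Klrk1, which encodes the activating receptor NKG2D, was at 958 and 1128 CPM. Ncr1, which encodes the activating receptor NKp46, was at 578 and 581 CPM. Prf1, perforin, was at 612 CPM (interval 516 to 721) and 383 CPM (315 to 461), the widest gap of the 6. The ranges of single cells of the libraries overlapped for all 6 genes.

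Most genes lay within 2-fold between the β-glucan and PBS members. Of 2180 genes with at least 50 UMIs over both libraries, 74 (3.39%) were at least 2-fold higher with β-glucan and 34 (1.56%) at least 2-fold lower. Log2 ratios were above 0 for 1204 of the 2180 genes (55.2%), the share against which the counts of each list below are to be read. With totals without mitochondrial and ribosomal protein genes the split was 59 to 45, and with TMM factors 60 to 43. Without the 4 β-glucan barcodes it was 37 to 37 of 1972 genes, of which 27 and 24 were among the 74 and 34. In the NK-receptor class alone, 39 of 1408 genes (2.77%) were higher and 18 (1.28%) lower, and 30 and 20 of 1268 without its 2 barcodes with B cell genes. In the CD3 class, with 6 and 12 cells, 19 of 525 genes (3.62%) were higher and 41 (7.81%) lower. Those counts include the β-glucan barcode with macrophage genes, which held 12432 of the 56276 β-glucan UMIs of that class. A change of 2-fold is near the limit of these counts, as the interval of a gene with at least 50 UMIs reached a median of 0.64 log2 to each side.

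Genes of the killing machinery lay on both sides of equality between the libraries, and Gzmb was the lowest with β-glucan. Of 10 granule and death ligand genes with at least 50 UMIs over both libraries, 6 were higher and 4 lower with β-glucan over all members, none by 2-fold, with a median log2 ratio of 0.11 against 0.06 over all 2180 genes with that many UMIs. The median was -0.13 in the NK-receptor class alone. Gzma, the most abundant gene of this list, Nkg7 and Prf1 are rule genes, so the count and medians rest partly on values that chose the members. They are given as a description only. Gzmb, granzyme B, stood at 34 UMIs in β-glucan members and 80 in PBS members (log2 ratio -0.91, interval -1.53 to -0.31), and in the NK-receptor class at 202 CPM against 436 CPM (log2 -1.11). No NK-receptor class cell had Gzmb without Gzma: both were found in 17 and 17 cells, Gzma alone in 9 and 6, and neither in 2 and 2. As Gzma is a rule gene, only the 2 and 2 cells without it could have shown Gzmb alone. These counts therefore say little about whether the 2 genes go together. Fasl, the death ligand, was at 37 and 37 UMIs, and Lamp1, which marks granule release at the cell surface, at 29 and 22 UMIs.

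Among activating receptors, 13 of 16 genes had at least 50 UMIs, of which 7 were higher and 6 lower with a median log2 ratio of 0.29, and 0.03 in the NK-receptor class. The list includes Klrk1, a rule gene and its most abundant, Ncr1, a gene of both the rule and the class cut, and Klrb1c, a gene of the class cut. Its count and medians therefore rest partly on genes that chose the cells and are given as a description only. Klrb1c was at 483 and 308 CPM (log2 0.65, 0.24 to 1.07), and Cd244a, which encodes 2B4, at 257 and 147 CPM (log2 0.80, 0.22 to 1.40). Crtam, an adhesion receptor of activated NK and T cells, was the only member of the list at least 2-fold apart, at 35 against 18 UMIs, and 24 of the 35 were in 1 cell, while 31 were left without the 4 barcodes (log2 1.43). Of 9 inhibitory receptor genes 5 were higher and 4 lower, with a median of 0.12, and -0.14 in the NK-receptor class. Klrd1, which encodes CD94, the partner of NKG2 receptors, was at 796 and 663 CPM, and Klrc1, which encodes the inhibitory NKG2A, at 338 and 284 CPM. The checkpoint genes Pdcd1, Lag3 and Havcr2 had at most 3 UMIs in either library.

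The Ly49 genes varied from cell to cell in both libraries, as is known for this family, in which each NK cell transcribes a subset. Cells of the NK-receptor class had a median of 3 detected Klra genes, with a range of 0 to 5, and 1 cell in each library had none. Klra8, which encodes the activating receptor Ly49H, lies at chr6:130092152-130106938 on the reverse strand of GRCm39 and had a UMI in 71.4% of β-glucan cells (20 of 28, interval 51.3 to 86.8%) and 72.0% of PBS cells (18 of 25, 50.6 to 87.9%). Klra4, which encodes the activating Ly49D, was found in 39.3% and 52.0%. Among the inhibitory receptors, Klra9 (Ly49I) was found in 60.7% and 64.0%, Klra7 (Ly49G) in 50% and 80%, Klra3 (Ly49C) in 35.7% and 48.0% and Klra1 (Ly49A) in 21.4% and 12.0%. Klra7 showed the widest gap in this family, and its intervals, 30.6 to 69.4% and 59.3 to 93.2%, overlap. Klra5, Klra17 and Klra2 were at 0 of 28 and 0 of 25 cells, with exact upper bounds of 12.3% and 13.7%.

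In the cells that had them, the activating Klra genes reached high counts. Klra8 had a median of 11.5 UMIs per positive cell with β-glucan and 10.5 with PBS, and up to 36 and 50 UMIs in a cell. Klra4 had medians of 12 and 23 UMIs in positive cells. Both genes were found in 5 β-glucan and 10 PBS cells, Klra8 without Klra4 in 15 and 8, Klra4 without Klra8 in 6 and 3 and neither in 2 and 4. These genes are close paralogs, so part of the counts of a gene could belong to its neighbours. Of the 50-base words in the last 500 bases of the annotated transcripts, 48.3% of those of Klra9 and 29.0% of those of Klra3 also occurred in another Klra gene, against 15.7% for Klra8, 7.34% for Klra4 and 0.604% for Klra7. The counts of Klra9 and Klra3 are therefore the least certain of these.

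**Figure D3:**
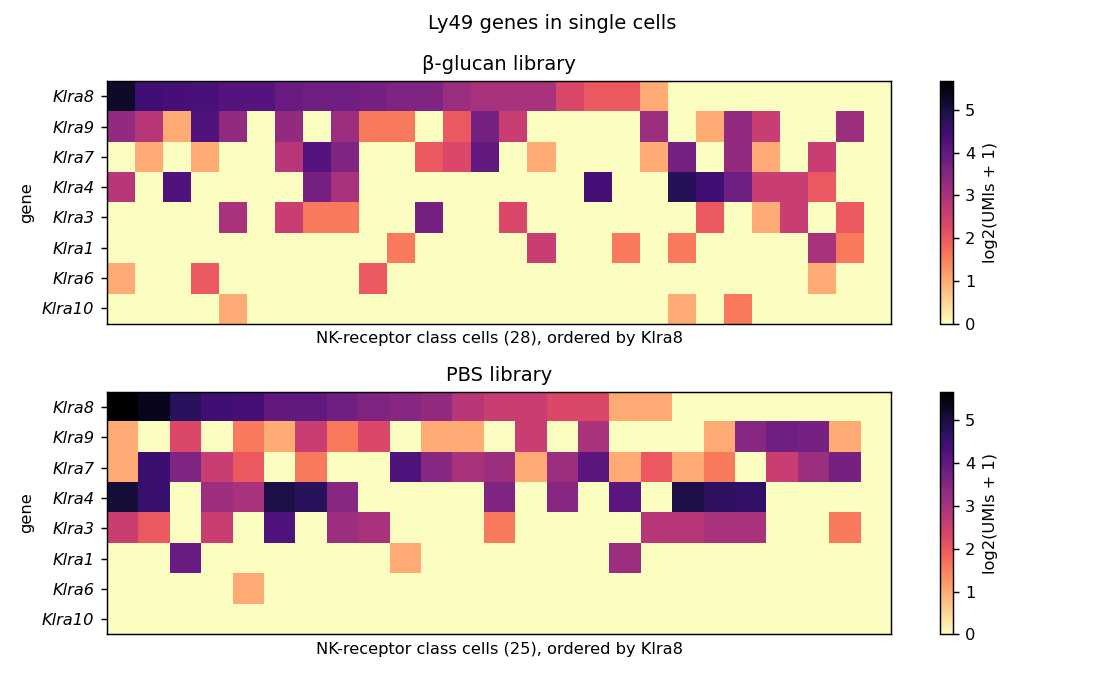
UMIs of 8 Klra genes (rows, as log2(UMIs + 1)) in each cell of the NK-receptor class (columns, ordered by Klra8), 28 cells with β-glucan and 25 with PBS. Klra8 was found in 20 and 18 cells, and the other genes occurred in overlapping subsets of cells with and without it.

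The transcription factors that define the NK lineage were present in both libraries. In the NK-receptor class, Eomes and Tbx21, the T-box factors of NK cells, were both detected in 12 and 16 cells, Eomes alone in 8 and 3, Tbx21 alone in 7 and 3 and neither in 1 and 3. Of 17 lymphocyte transcription factors, 12 were higher with β-glucan and 5 lower over all members (median log2 ratio 0.10). Zeb2, a factor of late NK maturation, was at 1117 and 687 CPM (log2 0.70, 0.43 to 0.97), and at a log2 ratio of 0.71 without the 4 barcodes and 0.48 in the NK-receptor class. Bach2, a repressor that restrains lymphocyte activation, was at 1040 and 649 CPM (log2 0.68), but its log2 ratio was 0.19 in the NK-receptor class. Ikzf2, which encodes Helios, was the only factor at least 2-fold lower, at 13 against 72 UMIs, of which 62 PBS UMIs were in the CD3 class.

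Itgam and Cd27, surface genes of NK maturation, were seen in every combination of detection. The cells had been sorted for CD11b, the protein of Itgam, so a cell without its UMI is not placed in a CD11b-negative stage. Itgam without Cd27, the pattern of mature NK cells, was seen in 12 and 10 cells of the NK-receptor class, both genes in 4 and 3, Cd27 alone in 3 and 6, and neither in 9 and 6, at a depth where a missing UMI does not show that a gene is off. Of 6 maturation genes with at least 50 UMIs, 5 were higher with β-glucan, and the 3 at least 2-fold apart were Cma1, Kit and Itgam. Of 153 Cma1 UMIs and 40 Kit UMIs with β-glucan, 126 and 30 were in the mast cell-like barcode. Without the 4 barcodes the log2 ratio of Kit was -0.03 and that of Itgam 1.03, and in the NK-receptor class they were -0.65 and 0.56. The list's median moved from 0.85 to 0.46 without the barcodes and to 0.25 in the NK-receptor class.

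Of 12 cytokine receptor and Janus kinase pathway genes 5 were higher and 7 lower, none by 2-fold, with a median log2 ratio of -0.09. Il18rap and Il18r1, the chains of the interleukin-18 receptor that NK cells carry at rest, were at 1309 and 813 CPM (log2 0.69, 0.44 to 0.94) and at 903 and 724 CPM (log2 0.32, 0.04 to 0.60). The β-glucan cells of the NK-receptor class had a median of 10 UMIs of Il18rap and the PBS cells 6, but their ranges overlapped, since the highest cells had 22 and 28. Il2rb, the chain shared by the interleukin-2 and interleukin-15 receptors, was at 757 and 752 CPM. Of 11 homing receptors and integrins 8 were higher and 3 lower with a median of 0.18, and Itga2, the NK marker CD49b, was at 586 and 407 CPM (log2 0.53, 0.16 to 0.89). Of 19 adaptors and kinases 12 were higher and 7 lower with a median of 0.05. The 2 at least 2-fold higher were Syk, at 56 against 26 UMIs (log2 1.43, 0.74 to 2.16), and Plcg2, at 36 against 22 (log2 1.03, 0.23 to 1.87). Neither was 2-fold apart in the NK-receptor class (0.97 and 0.70) or without the 4 barcodes (0.70 and 0.89). Tyrobp, the gene for the adaptor DAP12 of Ly49H and Ly49D, was at 374 and 376 UMIs. Interferon-stimulated genes were sparse: only Ifi203 of 17 reached 50 UMIs, at a log2 ratio of 0.20. Of 3 residency genes with that many UMIs, 1 was higher and 2 lower, with a median of -0.10, and of 1.29 in the NK-receptor class. Inpp4b, a phosphoinositide phosphatase, was at least 2-fold higher (log2 1.14), and its log2 ratio was 0.67 without the 4 barcodes but 2.35 in the NK-receptor class, from 25 against 5 UMIs.

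Secreted factors were few apart from Ccl5. Of 5 cytokine and chemokine genes with at least 50 UMIs 2 were higher and 3 lower, with a median log2 ratio of -0.01, but of 0.51 in the NK-receptor class and 0.78 among members with at least 4 rule genes. Ccl5, which chose the members, is among the 5, and its own ratio is the median of -0.01. The count and medians are therefore given as a description only. Ifng, interferon-γ, had 14 UMIs in 8 β-glucan cells and 12 in 8 PBS cells, and Xcl1, a chemokine for cross-presenting dendritic cells, had 40 UMIs in 8 and 60 in 12. Ccl3, which lies beside Ccl4 and is often made with it, had 18 UMIs in 6 cells and 7 in 5. Ccl4 was the only one at least 2-fold apart and is described below.

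Genes that differed between the NK-receptor and CD3 classes were chosen for the same sign in both libraries, so their agreement is no finding, and the classes were cut from CD3 and NK receptor genes in these cells. Besides the genes used for the cut and the other T cell receptor genes, those highest in the NK-receptor class, of which Gzma and Prf1 are also rule genes, were Gzma, Klra8, Tyrobp, Klra4, Fcer1g, Prf1, Irf8 and Aoah. Gzma had 945 UMIs in the NK-receptor class and 0 in the CD3 class with β-glucan, and 1156 and 18 with PBS, where all 18 were in 1 cell. Fcer1g, the adaptor of NKp46 and of the Fc receptor CD16, had a log2 ratio of 3.61 and 3.58 between the classes. Irf8, a transcription factor with a role in NK memory, was at 545 and 518 CPM in the NK-receptor class, with 0 and 1 UMIs in the CD3 class. Highest in the CD3 class were Bcl11b, Themis, Il7r, Fos, Inpp4b, Camk4, Icos and Gramd3. Bcl11b, the factor of T cell commitment, was at 373 and 257 CPM in the CD3 class and at 1 UMI in each library's NK-receptor class. Themis, a signalling protein of thymocytes, had 40 and 53 UMIs in the CD3 class and 0 in the NK-receptor class.

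The CD3 class was mixed. Of its 6 β-glucan cells, 3 had Cd8a or Cd8b1 without Cd4, 2 had Cd4 without these and 1 had neither, and of its 12 PBS cells, 5, 2 and 5 did. Ncr1 or Klrb1c was detected in 1 of 6 and 5 of 12. Ccl5 was at 2523 CPM with β-glucan and 5046 CPM with PBS, against 187 and 79.95 CPM in the 115 and 118 CD3 cells outside the members, a gap that the rule itself chose. Il7r, which the rule did not use, was at 782 and 489 CPM in the CD3 class and at 818 and 565 CPM in the CD3 cells outside. Xcl1, a chemokine of NK cells and activated CD8 T cells, was at 298 CPM in the PBS CD3 class and 17.8 CPM, from 1 UMI, in the β-glucan CD3 class. Tnfsf11, the gene for the osteoclast factor RANKL, had 22 UMIs in 3 PBS cells of this class, 20 of them in 1 cell, and 0 UMIs in every β-glucan member and in the NK-receptor class of PBS.

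Genes such as Mcpt4 and Bank1, which lay almost wholly in 1 or 2 of the 4 barcodes, had higher ratios than those named next, which were found in at least 10% of the members of a library and kept their sign without its highest cell. Of the 8 highest such genes, Cd74, H2-Ab1, Pde4d and Fchsd2 were no longer 2-fold apart without the 4 barcodes. Cma1, mast cell protease 5, had 153 UMIs against 16 (log2 3.58), and 126 were in the mast cell-like barcode, without which and the other 3 its log2 ratio was 1.35. Cd74, the invariant chain of antigen presentation, had 132 UMIs against 15 (log2 3.46), of which 66 and 53 were in 2 of the barcodes, and its log2 ratio was 0.06 without the 4 barcodes. H2-Ab1, a class II chain, went from a log2 ratio of 2.78 to -0.35, and Pde4d, a cAMP phosphodiesterase, from 3.15 to 0.06. Fchsd2, a membrane trafficking protein, went from 2.02 to 0.40 and Ptprj, a receptor phosphatase, from 1.82 to 1.02. In the NK-receptor class, which still holds 2 of the barcodes, Cma1 was at 0.97, Ptprj at 0.58 and Phlpp1, described next, at 1.61. Phlpp1, a phosphatase that acts on Akt, kept a log2 ratio of 2.03, at 42 against 13 UMIs in 11 and 6 cells over all members. Ebf1, a B cell factor, had 57 UMIs against 0, at least 4.57 higher on the log2 scale against the floor of 3 UMIs, in 3 cells of the NK-receptor class, and without the 4 barcodes 1 UMI was left.

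Ccl4, the gene for the chemokine MIP-1β that activated NK cells release, was at least 2-fold higher with β-glucan with and without the 4 barcodes, and most of its UMIs lay in a single NK-receptor class cell. It lies at chr11:83553383-83555509 on the forward strand of GRCm39 and had 237 UMIs in the β-glucan members and 30 in the PBS members (log2 3.31, 2.75 to 3.91). A single β-glucan cell held 166 of these and another 34, while the highest PBS cells had 10 and 4. It was detected in 13 of 28 and 10 of 25 cells of the NK-receptor class, with a median of 0 in both, so most cells overlapped. Without the highest cell of each library the log2 ratio was 2.15, and without the 4 barcodes 3.59. In C1q-high cells, which share the same 2 libraries, it was 0.80.

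Genes lowest with β-glucan lay mainly in the CD3 class of the PBS library. Cd3g and Trac, parts of the T cell receptor complex that also defined the class, were at 15 against 75 UMIs and 14 against 54. All 4 of the genes at least 2-fold lower among 11 tested T cell genes were the genes of the cut, Cd3d, Cd3e, Cd3g and Trac, and the list's median was -0.79, beside 6 and 12 CD3 class cells. Ikzf2 had 2 UMIs in the CD3 class with β-glucan and 62 with PBS, where 3 cells had 10 or more. The NK-receptor class had 11 and 10. Nebl, a nebulin-related actin-binding protein, had 1 and 41 UMIs in the CD3 class and 11 and 12 in the NK-receptor class. Elovl5, an enzyme of fatty acid elongation, had 7 and 38 UMIs in the CD3 class and 4 and 11 in the NK-receptor class. Smad7, an inhibitor of TGF-β signalling, had 6 and 46 UMIs in the CD3 class, spread over 4 and 11 cells, and 9 and 16 in the NK-receptor class.

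Of 6 immediate-early genes with at least 50 UMIs, Junb and Fos were at least 2-fold lower with β-glucan, and most of their PBS UMIs lay in the CD3 class. Junb, an AP-1 subunit, had 41 UMIs in the β-glucan members and 175 in the PBS members (log2 -1.77, -2.30 to -1.27). In the CD3 class these were 5 and 150, with at most 2 UMIs in a β-glucan cell, and 4 of the 12 PBS cells had 10 or more and the highest had 43. The NK-receptor class had 28 and 25, with at most 4 UMIs in a cell of either library. Fos followed, at 6 and 47 UMIs in the CD3 class, 36 of the 47 in 1 cell. In the NK-receptor class Fos had 1 and 4 UMIs (log2 -1.97). Nfkbia, which encodes the NF-κB inhibitor IκBα, had 1 and 45 UMIs in the CD3 class and 13 and 15 in the NK-receptor class. The log2 ratios of all 6 immediate-early genes were below 0, with a median of -0.72, but of -0.13 in the NK-receptor class and of 0.10 among members with at least 4 rule genes. The 3 heat shock genes had a median of -0.52, led by Hspa8 at 109 against 196 UMIs, and of -0.68 in the NK-receptor class.

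**Figure D4:**
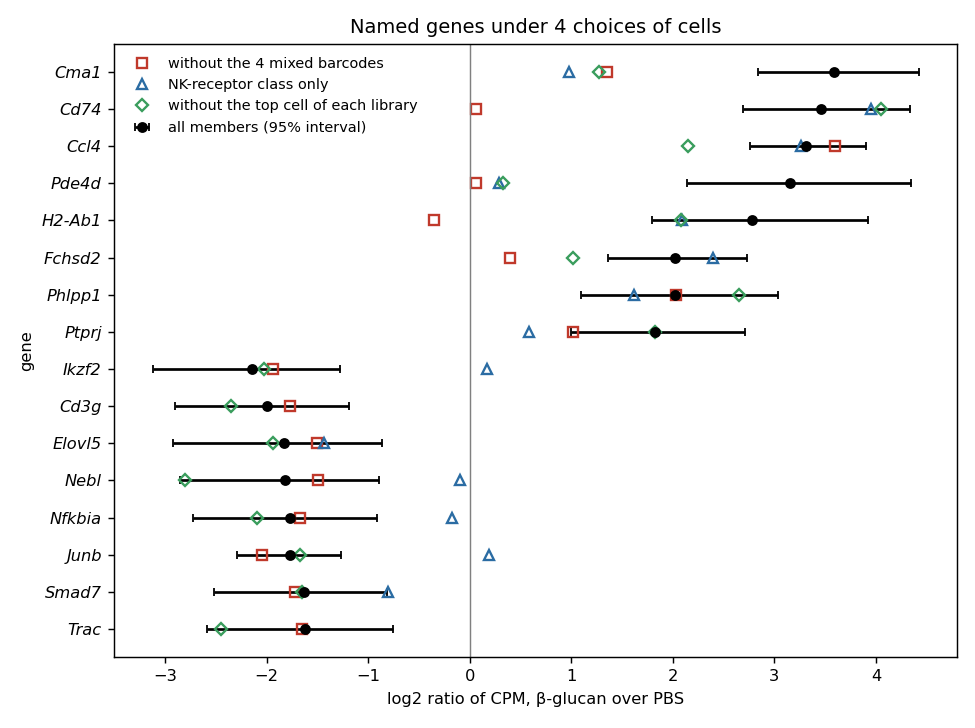
Log2 ratio of CPM, β-glucan over PBS (horizontal axis), of the 8 highest and 8 lowest named genes (rows), for all members with 95% intervals for counting error, without the 4 mixed barcodes, in the NK-receptor class only and without the highest cell of each library. Cd74, Pde4d and H2-Ab1 moved to between -0.35 and 0.06 without the 4 barcodes, Ccl4 stayed at 2.15 or above, and Ikzf2, Nfkbia and Junb lay near 0 in the NK-receptor class, where Cd3g and Trac have no ratio.

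Gene span moved with the ratio across the whole list. Genes of 100 kb or more had a median log2 ratio of 0.26 (613 genes, 73.1% higher with β-glucan), genes of 10 to 100 kb of 0.06 (1207 genes), and genes under 10 kb of -0.27 (358 genes, 20.7% higher). The same medians in the NK-receptor class were 0.27, 0.07 and -0.29. For these genes in the C1q-high cells they were 0.15, 0.02 and -0.09, so the order was the same in the cells that made up most of both libraries. Genes of at least 100 kb took 22.9% of the UMIs of β-glucan members and 19.2% of those of PBS members, against 19.7% and 17.9% in C1q-high cells. Whether intronic reads were counted is not given in the sources used here, and the part of span in the ratios was not tested. Several genes above are short, such as Ccl4, Nfkbia, Junb and Fos at 2.13, 4.10, 4.25 and 3.39 kb, or long, such as Fchsd2, Phlpp1 and Ptprj at 192, 223 and 151 kb.

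**Figure D5:**
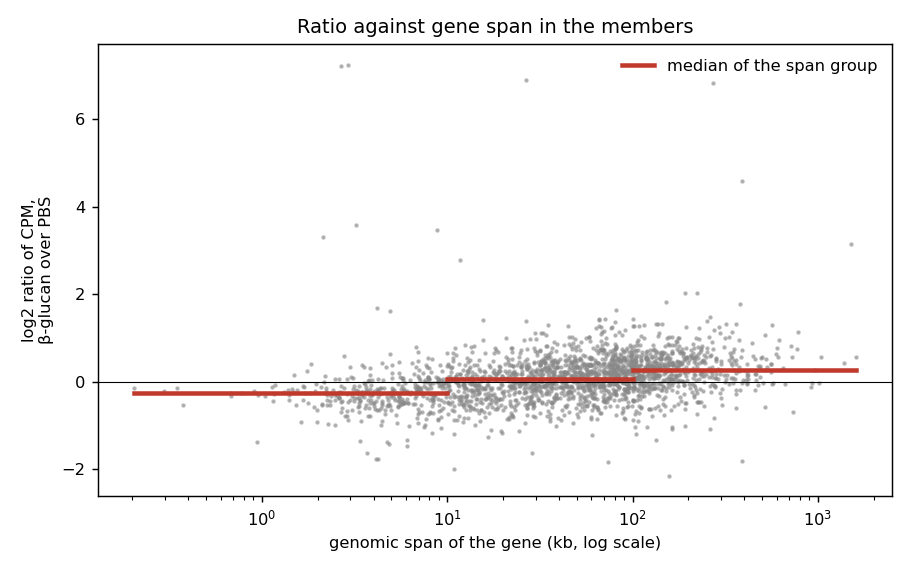
Log2 ratio of CPM, β-glucan over PBS, in the members (vertical axis) against the genomic span of the gene in kb (horizontal axis, log scale), 1 point for each of 2178 genes. Red lines are the medians of genes under 10 kb, of 10 to 100 kb and of 100 kb or more, at -0.27, 0.06 and 0.26.

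Of 13 genes taken from those that the study named for the myeloid compartment, not the whole set, 6 had at least 50 UMIs in the members, and none of these 6 was 2-fold apart. Of them 5 were higher and 1 lower with a median log2 ratio of 0.34 against 0.06 over all genes, and 0.15 in the NK-receptor class. Elmo1, which acts in Rac activation and cell movement, was at 1309 and 1094 CPM (log2 0.26, 0.03 to 0.49), and Vav3, a guanine nucleotide exchange factor, at 364 and 249 CPM (log2 0.54, 0.08 to 1.02). Ern1, the stress sensor IRE1α, was at 37 and 64 UMIs (log2 -0.47, -1.09 to 0.14), and at a log2 ratio of 0.30 in the NK-receptor class. Mitf, a transcription factor of mast cells and osteoclasts that was looked at after its values were seen, had 22 UMIs against 3, under the minimum, and all 22 were in the 4 barcodes with genes of another class. Mef2c and Klf2, transcription factor genes that the study also named and that are outside these 13, were at 29 and 38 UMIs (log2 -0.07) and at 108 and 90 UMIs (log2 0.59). Elmo1 is a gene of long span, and Vav3 was at a log2 ratio of -0.01 in the NK-receptor class.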

How the data were processed

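The deposited counts were UMIs per gene and cell barcode, made by the authors with Cell Ranger 7.0.0 on GRCm39 with Ensembl 104 genes, and list 32524 genes. The submitters' processing notes also name mm10, without a role. The β-glucan library held 7196 barcodes and 81611849 UMIs and the PBS library 5760 and 73874602. Of these barcodes 5696 and 4553 passed 500 genes and 10% mitochondrial UMIs, the limits given in the study's methods. The study reports 7196 and 5760 cells in its own map, which equal the barcodes before these limits, so fewer cells were kept here.

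UMIs were summed over the members of a library and divided by their total (CPM). Log2 ratios carry exact binomial intervals, shares Clopper-Pearson intervals and levels exact Poisson intervals, all for counting error. A gene was called at a log2 ratio of at least 1 in size with at least 50 UMIs over both libraries, and 3 UMIs served as floor for a count of 0. Doublets were scored with Scrublet in scanpy 1.11.5 and kept. Gene spans came from GENCODE vM39, matched by Ensembl ID for 31870 of 32524 genes.

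Named were the 6 rule genes, genes of the lists by summed UMIs or a 2-fold ratio, the 8 highest and 8 lowest ratios between libraries among genes found in at least 10% of members with the same sign per cell and without the highest cell, and the same number between classes. Ebf1, Ccl3, Tnfsf11, Bank1, Mcpt4 and Mitf and examples out of order of UMIs were chosen after their values were seen. Members and lists were chosen with earlier results of these data known. Alternatives changed the cell filter, the rule, the class limits, the scaling, the weighting, the minimum of UMIs and the doubted members. Python 3.11.15, numpy 2.4.6, scipy 1.17.1, pandas 2.3.3, R 4.3.3 and edgeR 4.0.16 (for TMM factors) were used, and the scripts were tested on simulated data.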

Additional observations from a re-analysis of the deposited data

Results flagged for a closer look

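For 6 named genes the ratio of β-glucan to PBS had opposite signs in the members and in the C1q-high cells of the same 2 libraries, with both intervals for counting error on 1 side of 0, and the difference was not tested. Trac also had opposite signs, at -1.62 and 0.04, but its interval in the C1q-high cells included 0. Cd74 had a log2 ratio of 3.46 in the members and -0.54 in the C1q-high cells, and H2-Ab1 had 2.78 and -0.47. Both lay mainly in barcodes with B cell or macrophage genes. Phlpp1 had 2.02 and -0.12. Ikzf2 had -2.15 and 0.75, Cd3g -1.998 and 0.69, and Nebl -1.82 and 1.21, and the PBS UMIs of these 3 genes in the members lay mainly in the CD3 class, which held 12 PBS and 6 β-glucan cells.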

How the results depend on the processing

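With 1 library per group, none of the differences has a replicate check, and no paired analysis was possible because each group held a single library. The ratio of member shares, 0.756, stayed within its interval under all 8 alternatives (0.670 to 0.862), as did 44 values of class shares. The counts of genes at least 2-fold higher and lower, 74 and 34, depended on the limits: 284 and 189 with a minimum of 20 UMIs, 20 and 10 with 100 UMIs, 191 and 67 with no limit on C1q UMIs, 39 and 18 in the NK-receptor class alone, and 30 and 20 there without its barcodes with B cell genes. Those higher numbered 37 without the 4 β-glucan barcodes and 19 in the CD3 class alone. Those lower numbered 20 with at least 4 rule genes and 54 with equal weight of both classes. The removal of all 4 barcodes and of the 2 in the NK-receptor class was chosen after seeing the data.

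Among named genes at least 2-fold apart, signs turned in 13 values. Ratios near 0, such as those of the rule genes Gzma, Ccl5, Ncr1 and Nkg7, also changed sign under some alternatives and are not counted there. Pde4d went to -0.11 without the 2 β-glucan members with at least 3 mast cell or B cell markers. It went to -0.90 in the CD3 class and to -0.22 with equal weight of both classes. H2-Ab1 went to -0.35 without the 4 barcodes. In the NK-receptor class Ikzf2 went to 0.16 and Junb to 0.19, and without its barcodes with B cell genes they were at 0.27 and 0.21, Nebl at 0.14, H2-Ab1 at -0.73, Fchsd2 at -0.11 and Ptprj at -0.32. Ccl4 was at -1.22 in the CD3 class, from 1 and 5 UMIs. Of the medians of gene lists 49 moved by 0.25 or more on the log2 scale and 191 by less. With no limit on C1q UMIs the median of activating receptors went from 0.29 to -0.35 and that of inhibitory receptors from 0.12 to -0.39. Beyond the values given for the barcodes and classes, the cause was not tested.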

Other observations

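A few barcodes met the gene part of the rule and were left out by its other limits. With at least 3 rule genes but 10 or more C1q UMIs there were 6 β-glucan cells and 1 PBS cell, and 2 and 1 barcodes met the rule but failed the limits on genes or mitochondrial UMIs. Among other genes, Kcnq5, a potassium channel gene, had 272 UMIs in β-glucan and 110 in PBS cells of the NK-receptor class (log2 1.33), and Setbp1, a chromatin-binding protein gene, had 157 and 63 (log2 1.34). Sytl2, which links granules to Rab27, had 62 and 20 (log2 1.66). Ctla2a, an inhibitor of cathepsin-like proteases, had 81 and 180 (log2 -1.12). These were chosen after their values were seen, and the values include the 2 β-glucan barcodes with B cell genes. Kcnq5, Setbp1 and Sytl2 span 564, 360 and 108 kb. Of the genes of 100 kb or more, 73.1% were higher with β-glucan over all members.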
